A study of Sus scrofa with 8 samples.

Results

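The genes described here encode, apart from MRPS36, protein subunits of the mitochondrial ribosome. They were taken by symbol, MRPL for the large and MRPS for the small subunit followed by a number. Single-symbol probe sets of the porcine array gave 58 such genes, 36 MRPL and 22 MRPS, of 6765 named genes in all. MRPS36 is kept in the counts and scores of the 58 genes and of the 22 MRPS genes. The 58 genes were represented by 77 probe sets, and each gene was read from its probe set of highest mean log2 level over the 8 arrays. Another 6 probe sets, 5 for MRPL55 and 1 for MRPL22, carry several symbols and were left out.

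RNA came from the biceps femoris, a muscle of the hind limb, of female domestic piglets, and was hybridised to 4 control and 4 corticosteroid arrays. All piglets were under isoflurane sedation and mechanical ventilation for 5 days, and the labels of both groups name acute quadriplegic myopathy, a weakness of limb muscles seen in intensive care. The corticosteroid group received bolus doses of hydrocortisone, a glucocorticoid. The control protocol text gives 4 piglets of 25.5 kg mean weight and a 36 µg/kg/h endotoxin infusion that the control source label leaves out, whereas the corticosteroid text gives 8 piglets of 26.4 kg and no endotoxin. The series' design text adds the neuromuscular blocker pancuronium without naming the animals, and no text gives an age. Hydrocortisone, endotoxin and any processing batch therefore cannot be told apart between the groups. Whether every array is a separate animal is not stated, and a p-value here measures only the spread among these arrays, which may be technical. Muscle identity was checked on 12 fibre markers, of which 8 were measured, all with mean log2 levels of 10.30 or more.

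Mitochondria keep a small genome that encodes core subunits of the respiratory chain and ATP synthase, and they translate these messages on their own ribosomes. The ribosomal RNAs come from mitochondrial DNA, while the ribosomal proteins are encoded in the nucleus, made in the cytosol and imported. The small subunit binds and decodes the messenger, and the large subunit joins the amino acids and releases the chain toward the inner membrane. Some subunits have bacterial counterparts and others are particular to mitochondria. Muscle depends on this machinery for oxidative energy supply.

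The control and corticosteroid columns appear to follow different row orders in the deposited values, which decides the values of 21 of the 58 genes (36.2%). The corticosteroid values were re-assigned to the probe IDs sorted as text with full stops ignored. This order was inferred from the values and is stated in no source used here, so each value in a moved row rests on it. With the rows as deposited, the group means of these 21 genes correlated across genes with r = 0.079, and the median absolute log2 difference between groups was 2.72. After re-ordering r was 0.991 and the median absolute difference 0.11, against 0.20 for the 37 genes whose row is the same in both orders. MRPL9, for example, had a control mean log2 level of 9.65 and a corticosteroid mean of 3.03 as deposited and 9.69 after re-ordering. Genes are not independent replicates, and these correlations are descriptions. All values below use the re-ordered columns.

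**Figure D1:**
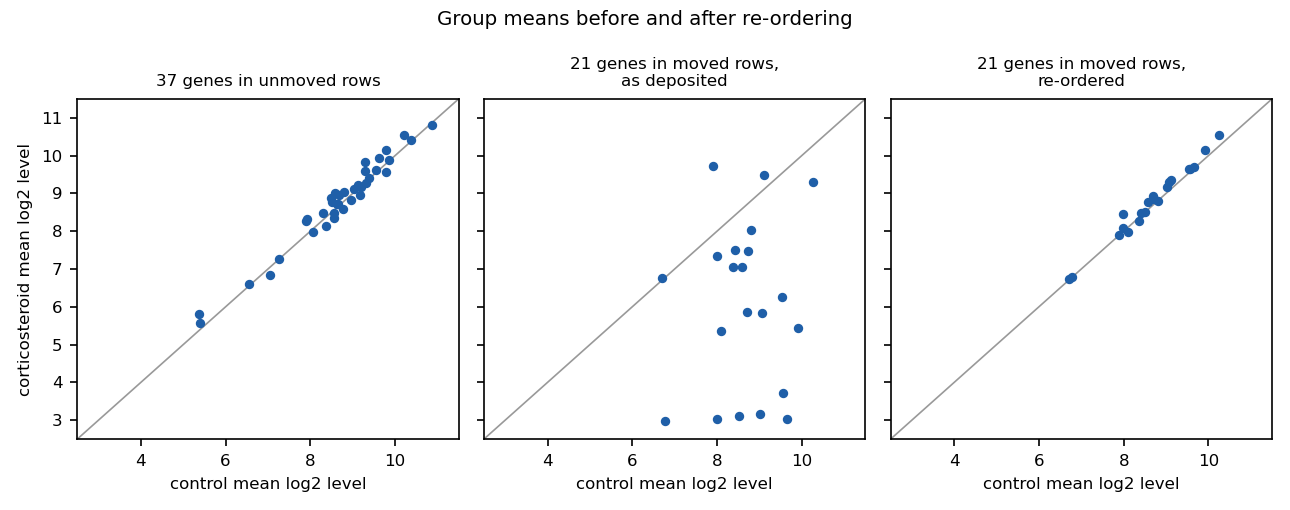
Mean log2 level of each gene in the corticosteroid group (vertical axis) against the control group (horizontal axis), for 37 genes in rows that the re-ordering leaves in place and 21 genes in rows that it moves, before and after. Points lie near the line of equality except for moved rows as deposited, where r across genes was 0.079.

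No mitochondrial ribosomal protein gene differed between the groups after adjustment over all probe sets tested. All 58 genes lay above the intensity filter (a mean log2 level above 5.27), and 0 of them had a limma adjusted p under 0.05, with values from 0.482 to 0.997. The same count over the 14361 probe sets tested was also 0 (0.00%). At an unadjusted p under 0.05, 2 genes had higher means with corticosteroid, MRPL37 and MRPS2, and 0 had lower means. That is 3.45% of the 58 genes, against 9.49% of all probe sets tested in either direction, 4.78% higher and 4.71% lower, so the share of nominal calls was no larger than in the background. With 1 probe set per named gene the background was 5.27% higher and 3.90% lower. The count of 2 was 0 without control replicate 2, and 1 without control replicate 3, corticosteroid replicate 3 or corticosteroid replicate 4.

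Differences within the family were small, and most leaned the same way. Means were higher with corticosteroid for 41 of 58 genes (70.7%) and lower for 17, against 52.8% higher over all probe sets tested and 54.0% over the 5406 named genes tested. The median log2 difference, corticosteroid minus control, was 0.09, with a range from -0.22 to 0.55, against a median of 0.02 over all probe sets tested. That median was 0.13 without control replicate 4, 0.05 without corticosteroid replicate 3, 0.02 with arrays weighted by quality and 0.01 without control replicate 2 and corticosteroid replicate 4 together, when 30 of 58 means were higher. The direction of the members is therefore given as a description only.

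The intervals show what size of change these arrays could have missed. The 95% interval of the log2 difference had a median half-width of 0.45 over the 58 genes. For 57 of 58 genes it lay wholly between -1 and 1, that is, within a doubling or halving of the level, and for 13 it lay between -0.5 and 0.5. Over the named genes tested, 73.7% had intervals inside the wider bound. Among the chosen probe sets MRPL37 was the exception, with an upper bound of 1.02. Some probe sets not chosen also left the wider bound. They were those of MRPS2 (0.25 to 1.13), MRPL35 (-1.18 to 0.04), MRPS12 (-1.1 to 0.14) and MRPL33 (-0.36 to 1.11). The within-group standard deviation of log2 levels had a median of 0.24 over the 58 genes and 0.32 over the named genes tested.

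**Figure D2:**
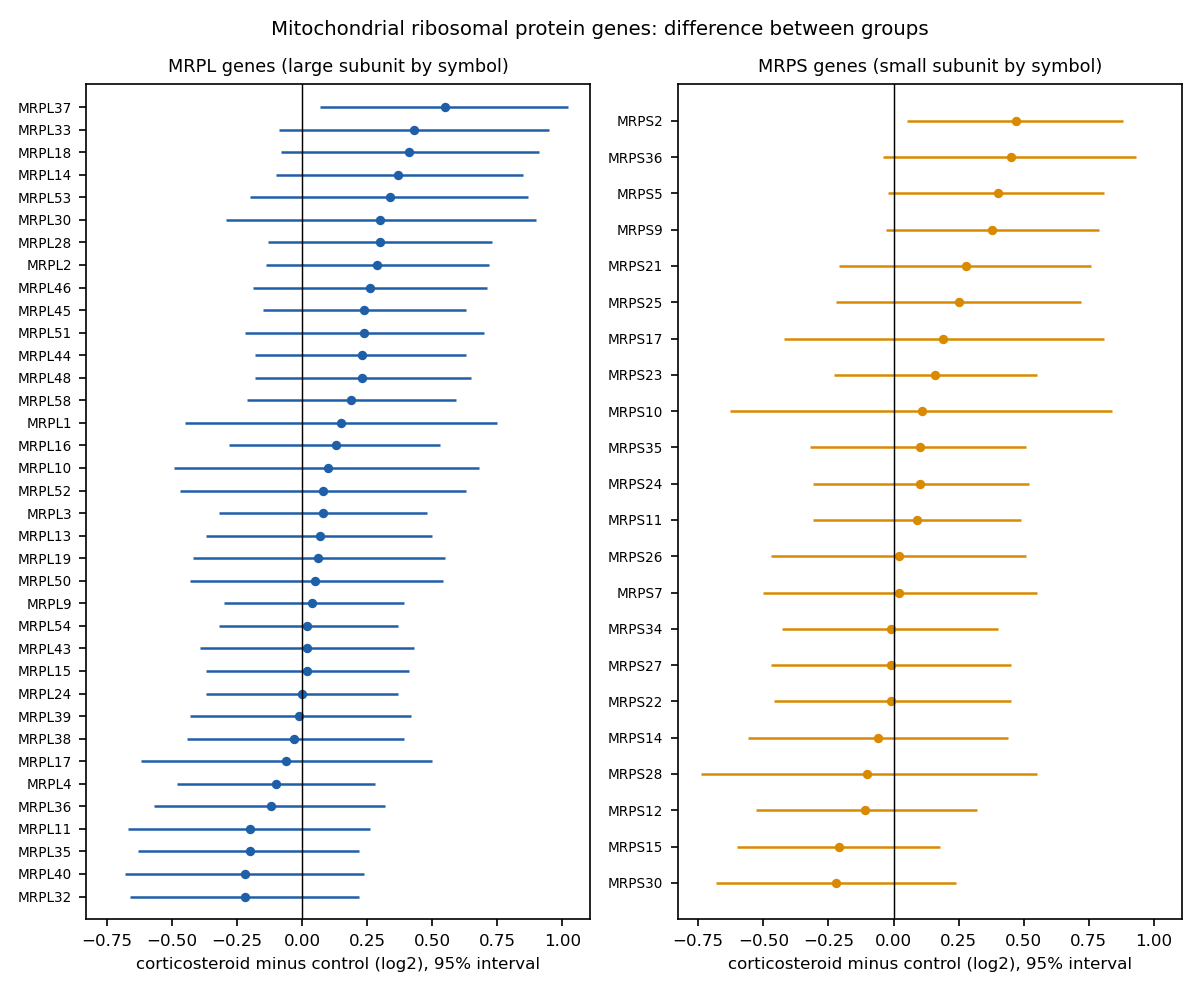
Difference between groups in log2 level (corticosteroid minus control, horizontal axis) for each MRPL gene (left) and MRPS gene (right), ordered by size. Points are limma estimates from 4 against 4 arrays and lines are 95% intervals, of which only those of MRPL37 and MRPS2 leave out 0.

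Large and small subunit genes had nearly the same distribution of differences. Of 36 MRPL genes 27 had higher means, with a median difference of 0.08, and of 22 MRPS genes 14 had higher means, with a median of 0.09. Leaving out control replicate 4 gave an MRPL median of 0.17, and leaving out corticosteroid replicate 3 gave 0.03. The MRPS median was 0.03 without control replicate 2 or corticosteroid replicate 1, 0.02 without corticosteroid replicate 4, and -0.01 without control replicate 2 and corticosteroid replicate 4. Symbols do not follow structure in every case. MRPS30 and MRPS18A proteins sit in the large subunit, and MRPS36, first assigned to the mitochondrial ribosome, is now known as a component of the 2-oxoglutarate dehydrogenase complex. MRPS18A was not among the genes measured. Grouped by structure, the medians were 0.08 over 37 large-subunit genes and 0.09 over 20 small-subunit genes. The 34 genes with a bacterial counterpart had a median of 0.09 and the 23 that are particular to mitochondria a median of 0.08. Ranges ran from -0.22 to 0.47 and from -0.22 to 0.55, so these groupings did not separate the genes.

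In the small subunit, MRPS2, a counterpart of bacterial protein S2, had log2 levels of 8.14, 7.68, 7.96 and 8.19 on control arrays 1 to 4 and 8.25, 8.40, 8.62 and 8.55 on corticosteroid arrays 1 to 4. All 4 corticosteroid arrays lay above all 4 control arrays. The difference was 0.47 (SE 0.18, unadjusted p = 0.0305, limma adjusted p = 0.482), a 1.38-fold higher level. The second probe set of MRPS2 differed by 0.69 (SE 0.20, limma adjusted p = 0.470), again with no overlap between groups. Both MRPS2 probe sets lie in rows that the re-ordering moved, and as deposited the chosen one differed by -4.96.

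MRPS5, which lines the channel where messenger RNA enters, showed the same separation without depending on the row order. Its log2 levels were 7.81, 7.59, 8.18 and 8.12 on control arrays and 8.46, 8.34, 8.29 and 8.20 on corticosteroid arrays. The groups did not overlap, though the gap between control array 3 and corticosteroid array 4 was small. The difference was 0.40 (SE 0.18, limma adjusted p = 0.534). MRPS2 and MRPS5 were the 2 genes of the family whose groups did not overlap with corticosteroid higher (3.45% of 58, against 3.05% of all probe sets tested), and 0 genes did so with corticosteroid lower (2.51% of all probe sets tested).

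MRPS9, a protein of the small-subunit head, had log2 levels of 7.75, 7.81, 7.99 and 8.06 in controls and 8.38, 7.95, 8.29 and 8.51 with corticosteroid. Corticosteroid array 2 lay among the controls. The chosen probe set differed by 0.38 (SE 0.18, limma adjusted p = 0.540), while the second differed by 0.02 (SE 0.15). MRPS36 differed by 0.45 (SE 0.22, limma adjusted p = 0.543), from a control mean of 5.37 ± 0.35 (SD, n = 4) that lies close to the filter level. The other head proteins MRPS7, MRPS10 and MRPS14 differed by 0.02, 0.11 and -0.06. MRPS24, the other protein at the messenger entry, differed by 0.10 (SE 0.18).

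MRPS12 is a protein of the decoding centre, where codon and anticodon are matched. Its log2 levels were 8.18, 8.43, 7.81 and 7.93 in controls and 8.16, 7.86, 7.85 and 8.04 with corticosteroid, so the groups overlapped throughout. The difference was -0.11 (SE 0.19), and it was 0.01 without control replicate 2. The other MRPS12 probe sets differed by -0.48 (SE 0.28) and -0.23 (SE 0.23), in the same direction but of another size. On the platform, MRPS11 differed by 0.09, MRPS21 by 0.28 and MRPS28 by -0.10. MRPS15, a ribosomal RNA-binding protein, had the smallest p among genes with lower means. It stood at 9.72, 9.91, 9.57 and 9.91 in controls and 9.47, 9.56, 9.38 and 9.84 with corticosteroid, a difference of -0.21 (SE 0.17, limma adjusted p = 0.675).

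In the large subunit, MRPL37, a protein with no bacterial counterpart, had the largest difference and the smallest p among the chosen probe sets of the family. Its log2 levels were 9.35, 9.08, 9.10 and 9.61 in controls and 9.83, 9.51, 9.75 and 10.25 with corticosteroid. Corticosteroid array 2 lay below control array 4, and the other 3 corticosteroid arrays lay above all controls. The difference was 0.55 (SE 0.21, 95% interval 0.07 to 1.02, unadjusted p = 0.0280, limma adjusted p = 0.482), a 1.46-fold higher level. MRPL37 differed by 0.41 without corticosteroid replicate 4 and by 0.66 without control replicate 4. Its row is the same in both orders. Of the probe sets not chosen, the second of MRPS2 differed by 0.69 and the second tested one of MRPL35 by -0.57. With the probe sets of each gene averaged, MRPS2 differed by 0.58 and MRPL37 by 0.55.

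MRPL18 and MRPL33 came next among large-subunit genes. MRPL18, a protein of the central protuberance, stood at 8.98, 8.16, 8.33 and 8.44 in controls and 8.88, 9.20, 8.76 and 8.71 with corticosteroid, a difference of 0.41 (SE 0.22, limma adjusted p = 0.563). Control array 1 lay among the corticosteroid arrays. Its second probe set differed by 0.18 (SE 0.19). MRPL33 stood at 8.72, 8.74, 8.52 and 8.28 in controls and 8.67, 8.95, 8.79 and 9.57 with corticosteroid. Its difference of 0.43 (SE 0.23, limma adjusted p = 0.566) was 0.24 without corticosteroid replicate 4, the array on which it was highest. MRPL14, at the interface between the subunits, differed by 0.37 (SE 0.21, limma adjusted p = 0.572).

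The other structural regions of the large subunit held differences in both directions. In the central protuberance MRPL46 and MRPL48 differed by 0.26 and 0.23, MRPL38 by -0.03 and MRPL40 by -0.22 (SE 0.20). On the stalk that recruits translation factors, MRPL10 differed by 0.10 (SE 0.26) and MRPL11 by -0.20 (SE 0.21). MRPL10 had the other sign without control replicate 3 (-0.09) and without corticosteroid replicate 3 (-0.01). Around the peptidyl transferase centre, where peptide bonds form, MRPL2, MRPL3 and MRPL16 differed by 0.29, 0.08 and 0.13. At the tunnel through which the new chain leaves, MRPL17 differed by -0.06, MRPL24 by 0.00 and MRPL45, which faces the inner membrane, by 0.24 (SE 0.17).

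**Figure D3:**
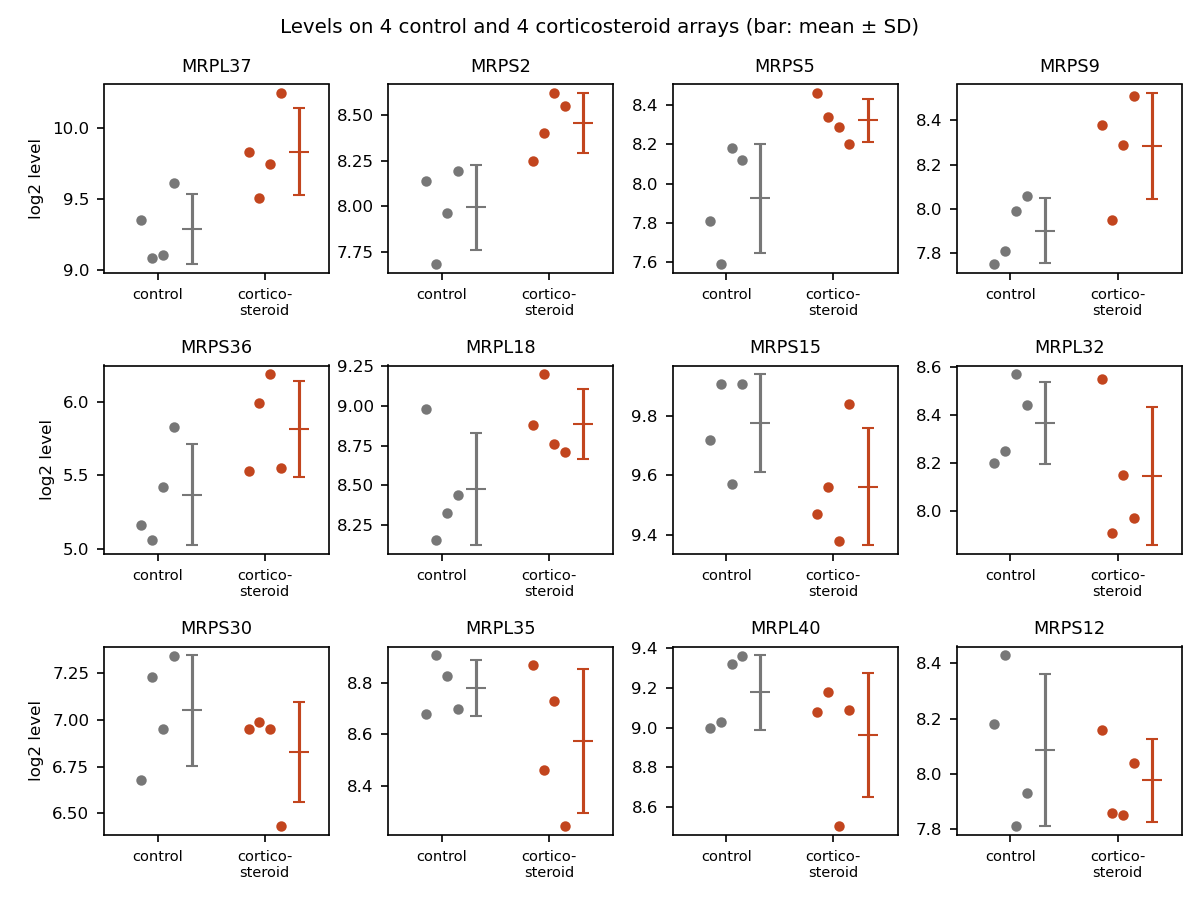
Log2 level (vertical axis) of 12 named genes on the 4 control arrays (grey) and 4 corticosteroid arrays (red), with the mean and SD of each group beside the points and a separate scale in each panel. MRPS2 and MRPS5 show no overlap between groups, and the remaining panels overlap.

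The lower end of the family held small-margin differences. MRPL32, a subunit trimmed by an inner-membrane protease before assembly, stood at 8.20, 8.25, 8.57 and 8.44 in controls and 8.55, 7.91, 8.15 and 7.97 with corticosteroid. Corticosteroid array 1 was as high as the upper controls, and the difference was -0.22 (SE 0.20, limma adjusted p = 0.700). MRPL35 stood at 8.68, 8.91, 8.83 and 8.70 in controls and 8.87, 8.46, 8.73 and 8.24 with corticosteroid, a difference of -0.20 (SE 0.19), and its second tested probe set differed by -0.57 (SE 0.27, limma adjusted p = 0.539). MRPS30, a large-subunit protein despite its symbol, differed by -0.22 (SE 0.20). MRPL36 and MRPL4 differed by -0.12 (SE 0.20) and -0.10 (SE 0.17). The 39 genes not named by the selection rule, some of which are given above by region, had differences from -0.10 to 0.34 and unadjusted p-values of 0.146 or more.

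Where a gene had several probe sets, they mostly agreed in direction. Of 14 genes with 2 or more probe sets above the filter, 12 had differences of one sign. MRPL15 had 0.02 on the chosen probe set and -0.19 on the other. MRPL38 had -0.03 and 0.29. Another 4 probe sets of the family lay below the filter and were not tested.

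Scored over all 58 genes, the arrays of the groups overlapped. The score is the mean over genes of the log2 level on an array minus the gene's mean over 8 arrays. Control arrays 1 to 4 had scores of -0.064, -0.142, -0.098 and 0.086, and corticosteroid arrays 1 to 4 had 0.124, -0.051, 0.031 and 0.114. Control array 4 lay among the higher corticosteroid arrays, and corticosteroid array 2 lay just above control array 1. Controls averaged -0.055 ± 0.099 (SD, n = 4) and corticosteroid arrays 0.055 ± 0.082 (SD, n = 4), so the gap of 0.109 was about as large as the spread within a group.

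Both subunits ordered the arrays in much the same way. Scores of the 36 MRPL genes were -0.055, -0.154, -0.087 and 0.070 on control arrays and 0.110, -0.058, 0.054 and 0.120 on corticosteroid arrays. Scores of the 22 MRPS genes were -0.078, -0.122, -0.117 and 0.111 on control arrays and 0.147, -0.040, -0.007 and 0.106 on corticosteroid arrays. In both subunits control array 2 was lowest. Gene by gene, control array 2 held the lowest of the 8 levels for 20 of 58 genes and the highest for 7, MRPL11, MRPS12, MRPS14 and MRPS28 among the latter. Corticosteroid array 4 held the highest for 17 genes and the lowest for 5, among them MRPL1, MRPS10 and MRPS30.

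**Figure D4:**
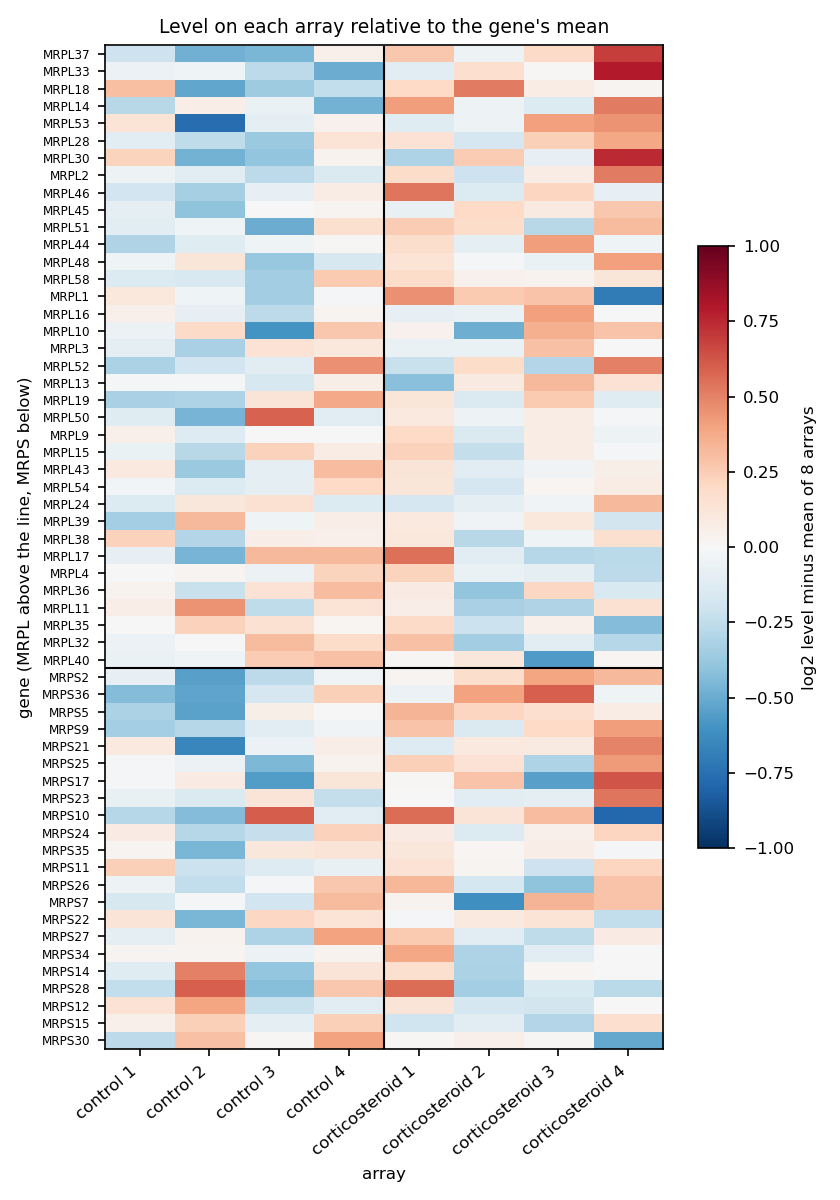
Log2 level on each of the 8 arrays (columns) relative to the gene's mean over the arrays (colour, from -1 to 1), for the MRPL genes above the horizontal line and the MRPS genes below, each ordered by difference between groups. Control array 2 is the lowest array for 20 of 58 genes and corticosteroid array 4 the highest for 17.

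Control array 2 also had the highest sums of macrophage, fibroblast and smooth muscle markers, and their part in these scores was not tested. In bulk tissue, fewer cells of a type and less RNA per cell cannot be told apart. The summed linear level of 6 macrophage markers, all above the filter, was 2775 on control array 2, from 821 to 1281 on the other controls and from 578 to 1053 with corticosteroid. The sum of 5 fibroblast markers, all above the filter, was 5561 on that array, from 2085 to 2879 on the other controls and from 2412 to 4100 with corticosteroid. The fibroblast gene COL3A1 ran the other way and was lowest on control array 2, at a log2 level of 6.48. The macrophage gene MARCO stood at 6.20 there, below control array 1 and every corticosteroid array. The sum of 3 smooth muscle markers was 3687 on control array 2 and from 1151 to 2676 on the other 7 arrays. TAGLN among them stood at 9.02 on control array 2 and at 9.13 and 9.03 on corticosteroid arrays 1 and 3. Endothelial, adipocyte, satellite cell and red cell sums on control array 2, of 2123, 8107, 572 and 282, lay within the range of the other arrays. The mean centred score of the 2 satellite cell markers was highest on control array 2, at 1.044. Of 6 T cell markers 5 lay below the filter, CD2, CD3E, CD3G, CD4 and CD8A. The 8 fibre markers summed to 57412 on control array 2 and to 65623 or more on the other 7 arrays. MYH2, TNNT3, RYR1 and CKM were lowest on control array 2. TNNT1 ran the other way and was highest there, at a log2 level of 11.94, and MYH7, at 12.37, was exceeded only on control array 3. The mean centred score of the 8 fibre markers was -0.089 on control array 2, and -0.186 and -0.172 on corticosteroid arrays 1 and 2. At an unadjusted p under 0.05, the slow-fibre genes MYH7 and TNNT1 had lower means with corticosteroid, by -1.17 (SE 0.32) and -1.78 (SE 0.40), and the fast-fibre gene TNNT3 had a higher mean, by 0.66 (SE 0.21). All 3 had no overlap between groups and limma adjusted p-values of 0.469, 0.469 and 0.479, and their part in the values of the mitochondrial ribosomal genes was not tested.

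Other genes of mitochondrial gene expression had nominal calls in both directions. Over 7 lists with 74 genes tested, 3 were higher and 3 lower at an unadjusted p under 0.05 (4.05% each, against 4.78% and 4.71% of all probe sets), and 0 passed the adjusted threshold. Among rows that are the same in both orders, 1 was higher and 0 were lower. Leaving out control replicate 2 gave 1 higher, and leaving out control replicate 4 or corticosteroid replicate 2 gave 5. Leaving out control replicate 1 gave 5 lower, and leaving out corticosteroid replicate 1 gave 8. The median difference was 0.04 and 42 of 74 means were higher. Subunits of the mitochondrial ribosome that carry other symbols were GADD45GIP1 at 0.45 (SE 0.23), the GTP-binding DAP3 at 0.18 (SE 0.17), CHCHD1 at 0.06 (SE 0.19) and PTCD3, which receives messenger RNA, at -0.20 (SE 0.18).

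Translation factors had higher means for 8 of 9 genes (88.9%, against 52.8% of all probe sets tested), with a median of 0.29. Only 1 gene was higher at an unadjusted p under 0.05 (11.1%, against 4.78% of all probe sets tested). That gene was MTFMT, which formylates the initiator tRNA. It stood at 7.24, 6.84, 7.05 and 7.62 in controls and 7.80, 7.87, 8.0 and 7.56 with corticosteroid, a difference of 0.62 (SE 0.20, limma adjusted p = 0.479). Corticosteroid array 4 lay below control array 4. The translational activator TACO1 differed by 0.48 (SE 0.24), the RNA-binding SLIRP by 0.39 (SE 0.21) and the ribosome recycling factor MRRF by 0.33 (SE 0.18). The elongation factor GFM1 differed by -0.34 and the elongation factor TUFM by 0.22.

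Genes of ribosome assembly and ribosomal RNA modification had higher means for 12 of 16, against 52.8% of all probe sets tested. Their median difference was 0.17. Of these genes, 1 was higher at an unadjusted p under 0.05 (6.25%, against 4.78% of all probe sets tested) and 0 were lower. MTG1, an assembly GTPase, stood at 8.38, 7.66, 7.81 and 8.19 in controls and 8.43, 8.40, 8.53 and 9.19 with corticosteroid, a difference of 0.63 (SE 0.25, limma adjusted p = 0.482), with no overlap but a narrow gap to control array 1. ERAL1, a chaperone of the small-subunit RNA, differed by 0.27 (SE 0.16), RPUSD4 by 0.56 (SE 0.32) and the helicase DHX30 by -0.34 (SE 0.16). The 8 tRNA synthetase and amidotransferase genes tested had differences from -0.04 to 0.17, with GATB at 0.17, IARS2 at 0.08, FARS2 at 0.07 and GATC at 0.06.

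Genes acting before translation showed differences in both directions. Mitochondrial DNA and RNA maintenance genes had 4 of 10 higher means and a median of -0.09. HSD17B10, a subunit of the enzyme that trims tRNA ends, differed by 0.56 (SE 0.22, limma adjusted p = 0.483), TFAM, the packaging and transcription factor of mitochondrial DNA, by -0.30 (SE 0.24), PNPT1 by -0.64 (SE 0.49) and LONP1 by 0.20 (SE 0.17). Of 4 biogenesis regulators, YY1 differed by 0.34 (SE 0.15) with no overlap between groups, MYC by -0.80 (SE 0.62), PPRC1 by -0.37 (SE 0.38) and the coactivator PPARGC1A by -0.11 (SE 0.57).

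Import and membrane insertion genes included the 3 genes lower at an unadjusted p under 0.05, in 23 tested (13.0%, against 4.71% of all probe sets tested), with 9 higher means and a median of -0.07. The chaperonin HSPD1 differed by -0.91 (SE 0.23, limma adjusted p = 0.469) and its partner HSPE1 by -0.49 (SE 0.17), each with no overlap between groups. The import chaperone TIMM8A differed by -0.83 (SE 0.27). OXA1L, the insertase that binds the mitochondrial ribosome, differed by 0.39 (SE 0.19). HSPD1, HSPE1 and TIMM8A lie in moved rows.

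The respiratory chain and ATP synthase, some of whose core subunits these ribosomes make, had nuclear-encoded members with higher means for 45 of 58. The median of these members was 0.12, with 4 higher and 0 lower at an unadjusted p under 0.05 (6.90% higher, against 4.78% of all probe sets tested). The complex I genes NDUFV3, NDUFB7 and NDUFV1 differed by 0.70 (SE 0.21), 0.74 (SE 0.24) and 0.64 (SE 0.23), and the ATP synthase gene ATP5G2 by 0.47 (SE 0.19). Array by array the scores were 0.071, -0.075, -0.185 and -0.055 in controls and 0.024, -0.086, -0.067 and 0.373 with corticosteroid, and corticosteroid array 4 was the only one above all 4 controls. For the ribosome of the cytosol, 43 of 58 protein genes had higher means, with a median of 0.10 and 11 genes higher and 0 lower at an unadjusted p under 0.05 (19.0% higher, against 4.78% of all probe sets tested). The leading genes were FAU at 0.33 (SE 0.11), RPS10 at 0.27 (SE 0.09), RPS9 at 0.29 (SE 0.11) and RPL34 at 0.35 (SE 0.13). The median of the cytosolic genes was close to that of the mitochondrial ribosomal genes, while their median SE was 0.10 against 0.20. The difference in the number of nominal calls was not tested.

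**Figure D5:**
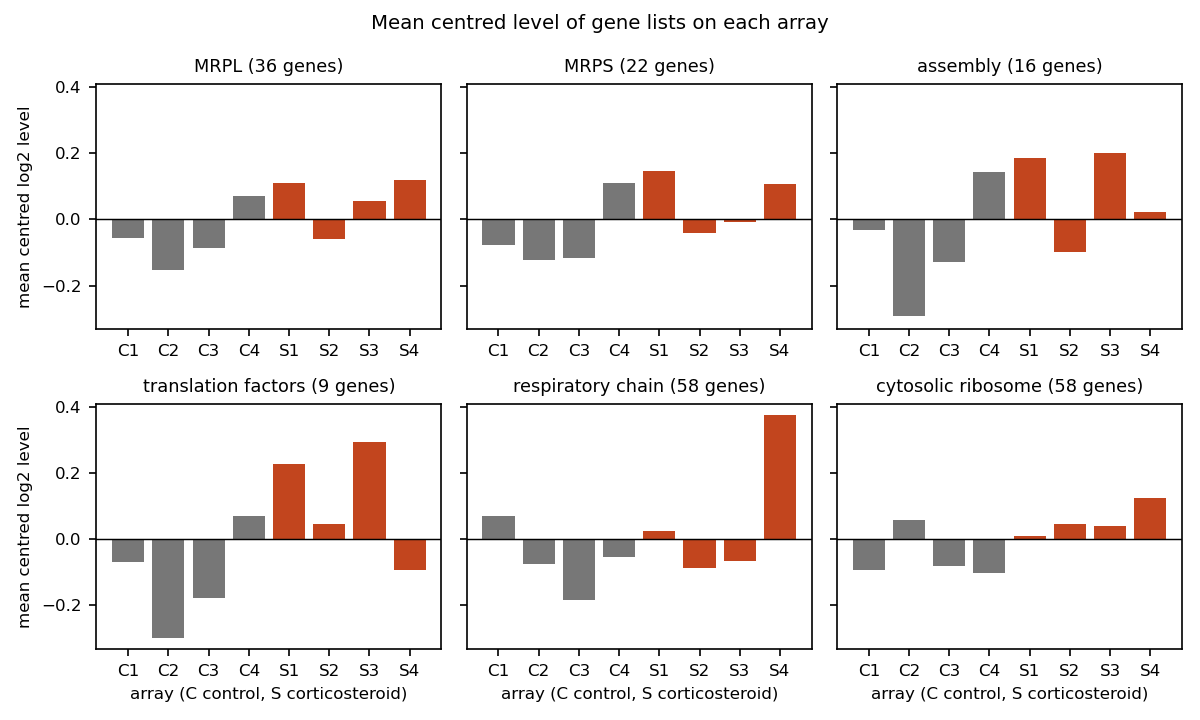
Mean centred log2 level (vertical axis) of 6 gene lists on control arrays C1 to C4 (grey) and corticosteroid arrays S1 to S4 (red), with the number of genes tested in each title. MRPL and MRPS scores are lowest on C2 (-0.154 and -0.122), and the MRPL and respiratory chain scores are highest on S4 (0.120 and 0.373).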

How the data were processed

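Log2 expression levels per probe set were deposited by the authors for 8 Affymetrix porcine arrays, 4 per group. MAS5 is named in the submitters' processing notes, and the scaling between arrays, genome build and aligner are not given in the sources used here. Array medians ran from 5.863 to 5.965, and no further scaling was applied. Corticosteroid values were re-assigned to probe IDs sorted with full stops ignored, which moves 9389 of 23999 rows (39.1%).

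Probe sets were named from the platform annotation, and 57 of the 58 genes were found by gene ID in the RefSeq table. After 64 reporter probe sets were removed, limma 3.58.1 in R 4.3.3 (lmFit, eBayes with trend) was fitted to the 14361 probe sets with mean log2 levels above the 40th percentile (5.27), with Benjamini-Hochberg adjustment over all of them at 0.05. The number of arrays limits the precision.

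The genes and lists were chosen with earlier results of these data known, so lists are described by counts and medians, with no test. Named genes were the 8 of smallest p in each direction, MRPL10, MRPL11, MRPS12, MRPL45, MRPS30, MRPS36 and MRPL37 whatever their result, and up to 4 of smallest p per other list. GFM1, TUFM and the members given by structural region lie outside this rule and were chosen after their values were seen. MRPL12, MRPS18B and MRPS18C, also on the rule, had no single-symbol probe set. Alternatives covered row order, a replicate block, scaling, filters, an offset of 16, variance models, array weights, probe-set averaging and leaving out arrays. Tables used pandas 2.3.3 and numpy 2.4.6 under Python 3.11.15.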

Additional observations from a re-analysis of the deposited data

Results flagged for a closer look

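In groups of 4 arrays, 48 sets of values (19 named genes and 5 scores, each in both groups) were examined for 1 array far from the other 3, and 3 sets passed Dixon's 95% critical value. Chance flags about 1 in 20 such sets. MRPS30 had a log2 level of 6.43 on corticosteroid array 4, against 6.95 to 6.99 on the other corticosteroid arrays (gap over range 0.920), and without that array its difference was -0.09. MRPL40 stood at 8.5 on corticosteroid array 3, against 9.08 to 9.18 on the others (0.857), and without it the difference was -0.06. For cytosolic ribosomal protein genes the score of control array 2 was 0.059, against -0.101 to -0.082 on the other controls (0.879), whereas the same array had the lowest score of the mitochondrial ribosomal genes.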

How the results depend on the processing

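With the rows as deposited, 17 of 57 genes tested passed the adjusted threshold, all 17 in moved rows. Over all 14361 probe sets tested in that order, 5454 passed it, and 6101 had an unadjusted p under 0.05 in either direction. Of the family, 16 genes were lower at an unadjusted p under 0.05 and 16 were lower without overlap. The median difference was then -0.01, that of MRPL genes -0.06, and 26 genes of the other lists were lower. MRPS2 (-4.96), MRPL10 (-0.65) and MRPL45 (-3.23) had the other sign, and MRPS12 (-2.72) passed. With unmoved rows only, 1 gene was higher at an unadjusted p under 0.05, 25 of 37 means were higher and 1 gene did not overlap, with 1 higher and 0 lower in the other lists. The count of 2 genes higher was 1 with the replicate block, 4 without the variance trend, 1 with array weights, and 0 without control replicate 2 and corticosteroid replicate 4, where 1 gene was lower without overlap. Replicate numbers showed no clear pairing of the samples (same-number correlations of -0.246, 0.109, 0.105 and 0.053). Control arrays 2 and 4 correlated best with the corticosteroid array of the same number, and control arrays 1 and 3 with another. With the replicate block 5 genes of the other lists were higher. Leaving out 1 array at a time gave 0 to 3 genes higher and 0 lower at an unadjusted p under 0.05, 2 to 6 higher (6 without corticosteroid replicate 2) and 0 to 2 lower (2 without corticosteroid replicate 1) without overlap, where fewer arrays make overlap rarer, 35 to 46 higher means, medians of 0.03 to 0.17 for MRPL and 0.02 to 0.12 for MRPS genes, and 1 to 5 higher and 3 to 8 lower in the other lists. MRPL10 ran from -0.09 to 0.28 and MRPS12 from -0.20 to 0.01. The causes were not tested. The count of members past the adjusted threshold was 0 in every alternative but the rows as deposited; over all probe sets tested, 1 that is no member passed without control replicate 3 (limma adjusted p = 0.0128).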
